A study of Mus musculus with 2 samples.

Results

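Transforming growth factor-β (TGF-β) signaling was examined through 10 genes, which are the ligands Tgfb1, Tgfb2 and Tgfb3, the receptors Tgfbr1, Tgfbr2 and Tgfbr3, the effector SMADs Smad2, Smad3 and Smad4, and the inhibitory Smad7. The genes were chosen by symbol and all 10 were found among the 23284 symbols in the data. Their expression was measured by RNA-seq in sorted leukemic stem cells (LSCs) of murine chronic myeloid leukemia (CML). Each genotype, WT and STAP-1 KO (KO LSCs below), was represented by 1 library. STAP-1 is an adapter protein that links tyrosine kinases to their signaling partners, and the KO mice carry a targeted disruption of its gene in the germline. In both groups, LSK cells (lineage marker-negative, Sca-1+, c-Kit+) of C57BL/6J (Ly5.2) donors were transduced with a retrovirus that carries human BCR-ABL and GFP. They were then transplanted into lethally irradiated C57BL/6SJL (Ly5.1) recipients together with bone marrow cells, so that the host is WT whatever the donor genotype. GFP+ CD45.2+ LSK cells were sorted at day 11 after bone marrow transplantation, from mice of 8 to 14 weeks of age as stated for all experiments. How many mice contributed to each library is not given in the sources used here.

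TGF-β is secreted in a latent form and is released by proteases, integrins and thrombospondin. The active ligand joins the type II receptor TGFBR2 to the type I receptor TGFBR1, whose kinase phosphorylates SMAD2 and SMAD3. These enter the nucleus with SMAD4 and act with other DNA-binding proteins, and SMAD7, which the pathway itself induces, blocks the receptor. In bone marrow TGF-β is known as a cytostatic signal that keeps stem cells quiescent, and it is among the pathways linked to the persistence of CML LSCs.

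Values are FPKM, fragment counts scaled by transcript length and by the depth of the library, so that levels of different genes within a library may be compared. How depth was scaled between the libraries is not given. The files hold no counts, so reads behind a value were estimated by finding the depth at which low FPKM values correspond to whole reads. The estimated effective depth was 7500000 reads for WT LSCs and 10470000 reads for KO LSCs. It is an approximation, because 47.8% and 49.1% of low values were whole reads. At these depths 3 reads on a transcript of 2000 bases correspond to 0.224 FPKM in WT LSCs and 0.16 FPKM in KO LSCs. All intervals below are 95% intervals from the estimated reads and cover counting error only. PCR reads without molecular identifiers are not independent molecules. With 1 library per genotype there was no replicate check, no test was possible, and the genotype cannot be told apart from variation among mice, sorts and library preparations. The targeted gene Stap1 had 62.0 FPKM in WT LSCs and 0.309 FPKM in KO LSCs.

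The receptors were lower in KO LSCs, whereas the effector SMADs were within 2-fold in both. A correction of the ratios for transcript length and GC content, with the longest transcript of each gene, brought Tgfbr3 within the cut-off. It brought Smad7 to the lower edge and Smad3 close to the upper edge. With the median coding length all 5 calls were kept, but the share of all genes was not computed for that setting. A gene was called lower or higher when it differed 2-fold or more and neither library was under 0.1 FPKM, where 2-fold is the cut-off of the study's design and 0.1 FPKM is a floor chosen here. Of the 10 genes, 8 could be compared in this way. Tgfb1, Tgfbr1, Tgfbr2, Tgfbr3 and Smad7 were lower in KO LSCs, and none of the 8 was higher. Smad2, Smad3 and Smad4 were within the cut-off. Tgfb2 and Tgfb3 were under the floor in KO LSCs. Among all 12507 genes with at least 0.1 FPKM in both libraries, 22.9% were called lower and 12.3% were called higher. The share of the 8 genes that was called lower was 62.5%. The median log2 ratio, log2((STAP-1 KO + 0.1)/(WT + 0.1)), of the 8 genes was -1.24, beside -0.04 over the 10974 genes that averaged 1 FPKM or more. After the correction with the longest transcript the median of the 8 genes was -0.78, which is within 2-fold. Fewer cells of a type and less RNA per cell cannot be told apart in these bulk samples.

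**Figure D1:**
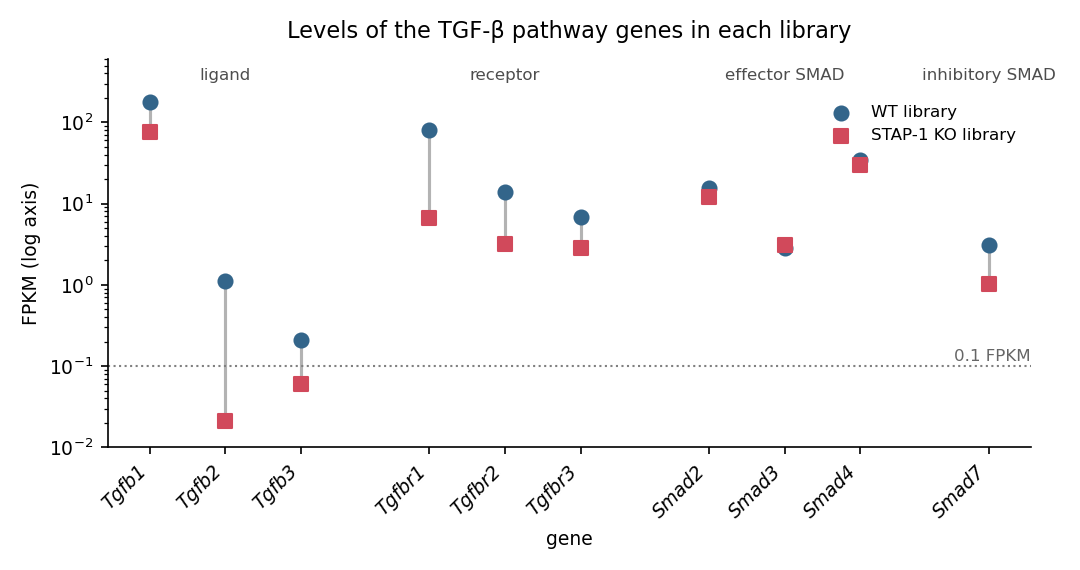
FPKM (log axis) of each of the 10 genes in WT LSCs (circles) and KO LSCs (squares), grouped by role and joined by a line for each gene. The squares lie far below the circles for the 3 receptors, with Tgfbr1 at 80.8 and 6.6 FPKM, and nearly on top of them for Smad2, Smad3 and Smad4, while Tgfb2 and Tgfb3 lie under the dotted line of 0.1 FPKM in KO LSCs.

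Of the ligands, Tgfb1 was by far the most abundant and supplied 99.3% of the summed ligand FPKM in WT LSCs and 99.9% in KO LSCs. Tgfb1, the isoform that most blood cells make, is on chromosome 7 of GRCm38 (chr7:25687002-25705077, plus strand). It had 177 FPKM in WT LSCs (interval from 170 to 184) and 75.6 FPKM in KO LSCs (from 71.9 to 79.5). The level was 2.34-fold lower in KO LSCs (from 2.19 to 2.48). Even so, Tgfb1 ranked at percentile 92.7 of all genes in KO LSCs, beside 97.7 in WT LSCs.

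Tgfb2 (chr1:186622792-186705989, minus strand) and Tgfb3 (chr12:86056745-86079041, minus strand) encode the isoforms better known from mesenchyme and epithelium. Tgfb2 had 1.12 FPKM in WT LSCs, about 41.3 estimated reads, and 0.0211 FPKM in KO LSCs, about 1.1 reads. Its ratio was 53.1-fold, with a counting interval from 9.71 to 2315. The level of Tgfb2 in WT LSCs was low, and what remained in KO LSCs rests on about a single read. Tgfb3 had 0.210 FPKM and 0.0601 FPKM, about 5.0 and 2.0 estimated reads, and its 3.49-fold ratio had an interval from 0.571 to 36.6, so that no difference was detectable at this depth. Of the stromal markers, Col1a1 (0.0891 and 0.0851 FPKM), Col3a1 (0 and 0.0357 FPKM), Pdgfra (0 and 0.0150 FPKM) and Lepr (0.0834 and 0 FPKM) were at or near 0 in both libraries. Pdgfrb had 8.38 and 2.88 FPKM and Cxcl12 had 0.194 and 2.68 FPKM.

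Platelets and their precursors are a known store of TGF-β1, so markers of these cells are given beside Tgfb1. The 8 megakaryocyte and platelet markers summed to 218 FPKM in WT LSCs and 137 FPKM in KO LSCs. Of the 7 that could be compared, 3 were called lower (22.9% of all genes were), 1 was called higher (12.3% of all genes were) and 3 were within the cut-off, and Gp6 was listed at 0 in WT LSCs. Itga2b had 123 and 32.5 FPKM, while Pf4 had 57.9 and 71.2 FPKM. Their part in the lower level of Tgfb1 was not tested.

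The promoters of Tgfb1 and of both signaling receptors are shown because these genes were lower together and carry most of the ligand and receptor FPKM. Each line is the RefSeq sequence (GRCm38.p6) of the 250 bases before the transcription start, 5′ to 3′ on the strand of the gene, and holds no annotated exon of that gene. They lie at chr7:25686752-25687001 (plus strand), chr4:47352972-47353221 (plus strand, the upstream of 2 starts listed for Tgfbr1) and chr9:116175364-116175613 (minus strand). Capitals mark matches to any of 4 motifs searched on both strands, which did not overlap each other.
Tgfb1: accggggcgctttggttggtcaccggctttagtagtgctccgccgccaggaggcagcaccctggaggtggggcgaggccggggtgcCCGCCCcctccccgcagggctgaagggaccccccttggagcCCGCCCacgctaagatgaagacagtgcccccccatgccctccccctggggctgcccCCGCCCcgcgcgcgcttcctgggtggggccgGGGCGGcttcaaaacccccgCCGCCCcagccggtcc
Tgfbr1: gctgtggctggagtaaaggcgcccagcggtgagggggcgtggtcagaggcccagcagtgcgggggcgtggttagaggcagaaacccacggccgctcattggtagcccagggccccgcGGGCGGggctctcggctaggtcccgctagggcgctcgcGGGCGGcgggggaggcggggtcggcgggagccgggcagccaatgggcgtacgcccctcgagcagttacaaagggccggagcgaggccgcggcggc
Tgfbr2: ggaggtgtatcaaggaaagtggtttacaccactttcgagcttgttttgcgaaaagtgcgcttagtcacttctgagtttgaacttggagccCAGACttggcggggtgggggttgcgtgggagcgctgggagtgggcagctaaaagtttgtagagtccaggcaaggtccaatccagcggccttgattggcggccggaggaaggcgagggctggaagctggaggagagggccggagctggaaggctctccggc

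The GC box GGGCGG, the letters bound by SP1, was found 5 times in the Tgfb1 promoter, 2 times in that of Tgfbr1 and 0 times in that of Tgfbr2. It was present in 32.7% of 32817 promoters of this length. The short SMAD box CAGAC was found 1 time in the Tgfbr2 promoter and in 42.2% of all promoters. The window before the other Tgfbr1 start, not printed, held 1 SMAD box and 0 matches to the other motifs. The letters of the STAT5 motif TTCNNNGAA and of the AP-1 motif TGANTCA, present in 7.01% and 6.75% of all promoters, were in none of the 3 windows. The Tgfb1 and Tgfbr1 windows were similar in base composition, with 75.2% and 74.8% G and C, against 58.4% for Tgfbr2.

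All 3 receptor genes were lower in KO LSCs as deposited, and after the correction for length and GC content the log2 ratio was -3.21 for Tgfbr1, -1.11 for Tgfbr2 and -0.65 for Tgfbr3, the last within the cut-off (-1.02 with the median coding length). Tgfbr1 (chr4:47353222-47414931, plus strand), the type I receptor with the kinase that phosphorylates SMAD2 and SMAD3, had 80.8 FPKM in WT LSCs (interval from 78.1 to 83.6) and 6.6 FPKM in KO LSCs (from 5.95 to 7.29). About 3361 and 383 estimated reads stand behind these levels. Tgfbr1 was thus 12.3-fold lower in KO LSCs (from 11 to 13.7), and of the 10 genes it had the largest ratio that rests on more than a few reads. Its rank among all genes was at percentile 93.9 in WT LSCs and 69.1 in KO LSCs.

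Tgfbr2 (chr9:116084293-116175360, minus strand), the type II receptor that binds the ligand first, had 14 FPKM in WT LSCs (from 13 to 15.0) and 3.16 FPKM in KO LSCs (from 2.79 to 3.57), a 4.43-fold lower level (from 3.84 to 5.10). Tgfbr3 (chr5:107106570-107289629, minus strand), the coreceptor betaglycan that presents ligand to TGFBR2, had 6.85 FPKM (from 6.10 to 7.67) and 2.81 FPKM (from 2.41 to 3.26), a 2.44-fold lower level (from 2.01 to 2.95). The intervals of each receptor did not overlap between the libraries, and neither did those of Smad2, which was within the cut-off. How many of all genes had intervals that did not overlap was not computed. The interval of Tgfbr3 began close to the 2-fold cut-off.

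Since the receptors differed by unequal factors, their proportions also differed. The proportions here use FPKM as deposited. The correction with the longest transcript shifts the receptors unequally, with log2 offsets of -0.38 for Tgfbr1 and -1.01 for Tgfbr2. Tgfbr1 made up 79.5% of the summed receptor FPKM in WT LSCs and 52.5% in KO LSCs. The level of Tgfbr1 was 5.78 times that of Tgfbr2 in WT LSCs and 2.09 times in KO LSCs. The summed receptor level was 102 and 12.6 FPKM, and the summed ligand level was 178 and 75.7 FPKM, so that the ratio of ligand to receptor was 1.75 and 6.02.

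In contrast to the receptors, the effector SMADs were within the cut-off. Smad4, the common partner of all signaling SMADs, had 34.1 FPKM in WT LSCs (from 31.8 to 36.6) and 29.8 FPKM in KO LSCs (from 28.0 to 31.8), a ratio of WT to STAP-1 KO of 1.14 (from 1.04 to 1.25). Smad2 had 15.4 FPKM (from 14.5 to 16.5) and 12.2 FPKM (from 11.4 to 13), a ratio of 1.27 (from 1.16 to 1.39). Smad3 (chr9:63646767-63757994, minus strand) had 2.81 FPKM (from 2.30 to 3.41) and 3.07 FPKM (from 2.61 to 3.59), a ratio of 0.916 (from 0.707 to 1.18). The interval of Smad3 includes a ratio of 1, and those of Smad2 and Smad4 lie above 1 and under the cut-off. Smad2 and Smad4 are on chromosome 18.

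Summed over the 3 effector SMADs, the level was 52.4 FPKM in WT LSCs and 45.1 FPKM in KO LSCs. The ratio of receptor to effector SMAD was 1.94 in WT LSCs and 0.279 in KO LSCs. Effector SMADs made up 15.6% and 33.6% of the summed FPKM of the 10 genes, which was 335 and 134 FPKM. Smad2 was the more abundant receptor-activated SMAD in both libraries, at 5.49 and 3.96 times the level of Smad3, and Smad4 stood at 1.87 and 1.96 times the sum of Smad2 and Smad3.

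The inhibitory Smad7 was past the cut-off as deposited, and the correction for length and GC content brought it to the cut-off with the longest transcript (log2 ratio -0.91 with the pseudocount and -1.0 without) but not with the median coding length (-1.54). Smad7, on chromosome 18, had 3.12 FPKM in WT LSCs (from 2.52 to 3.81) and 1.02 FPKM in KO LSCs (from 0.730 to 1.36). These levels rest on about 95.1 and 43.3 estimated reads. Smad7 was 3.07-fold lower in KO LSCs (from 2.13 to 4.53), and its level was 5.95% of the summed effector SMAD level in WT LSCs and 2.25% in KO LSCs.

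When the 10 genes were ordered by level, Tgfb1 was first in both libraries. In WT LSCs Tgfbr1, Smad4, Smad2, Tgfbr2, Tgfbr3, Smad7, Smad3, Tgfb2 and Tgfb3 followed, with overlapping intervals for the neighbors Smad2 and Tgfbr2 and for Smad7 and Smad3. In KO LSCs the order was Tgfb1, Smad4, Smad2, Tgfbr1, Tgfbr2, Smad3, Tgfbr3, Smad7, Tgfb3 and Tgfb2. Smad4 and Smad2 thus stood above Tgfbr1 in KO LSCs and below it in WT LSCs. The intervals of Tgfbr2, Smad3 and Tgfbr3 overlapped there, as did those of Tgfb3 and Tgfb2.

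**Figure D2:**
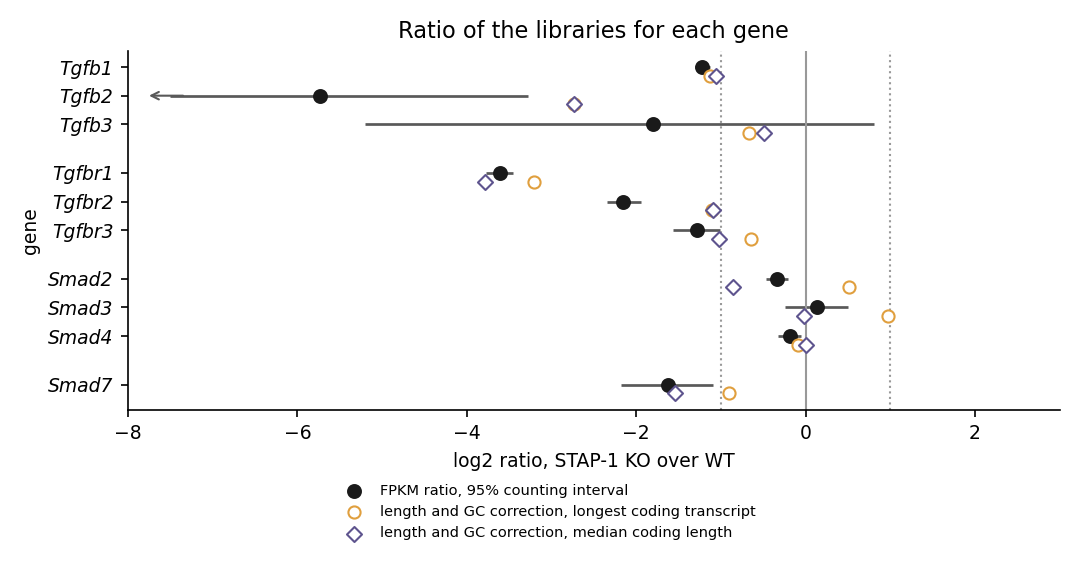
Log2 ratio of STAP-1 KO over WT for each of the 10 genes. Black points are the plain FPKM ratio with its 95% counting interval (the arrow marks an interval that runs off the axis), open symbols are the ratio with a pseudocount of 0.1 FPKM after correction for transcript length and GC content by 2 measures of length, and dotted lines mark 2-fold. Tgfb1 and the receptors Tgfbr1 and Tgfbr2 stay at or beyond the lower 2-fold line with each symbol. Smad2, Smad3 and Smad4 lie between the lines, with Smad3 close to the upper line at 0.97 after the correction with the longest transcript.

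The ratio of the libraries varied with transcript length across all genes, which bears on these long transcripts. Longer transcripts had lower ratios, with a Spearman's rho of -0.4 for log2 ratio and longest coding transcript over 10865 genes, which describes 1 pair of libraries. Among 1603 genes within 20% of the length of Tgfbr1 (5756 bases), the median log2 ratio was -0.67 (quartiles -1.42 and 0.0), while Tgfbr1 had -3.59. Among 771 genes of about the length of Tgfbr2 (8092 bases) it was -1.01 (quartiles -1.81 and -0.32), while Tgfbr2 had -2.11. For Tgfbr3 (6087 bases) the values were -1.25 for the gene and -0.75 for 1426 genes of like length (quartiles -1.5 and -0.1). Tgfbr1 and Tgfbr2 were below the lower quartile of genes of their length, and Tgfbr3 was not.

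Smad2 and Smad3 lay above the median of genes of their length, close to the upper quartile. Smad2, with a longest transcript of 8089 bases, had a log2 ratio of -0.34 beside a median of -1.01 (upper quartile -0.32). Smad3, with 5090 bases, had 0.12 beside -0.55 (upper quartile 0.11). Smad4 (3384 bases) had -0.19 beside a median of -0.08, and Smad7 (4278 bases) had -1.53 beside -0.33 (lower quartile -1.04). Tgfb1 is short, and its -1.22 stood beside a median of 0.28 for 2220 genes of about 2175 bases (lower quartile -0.35).

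**Figure D3:**
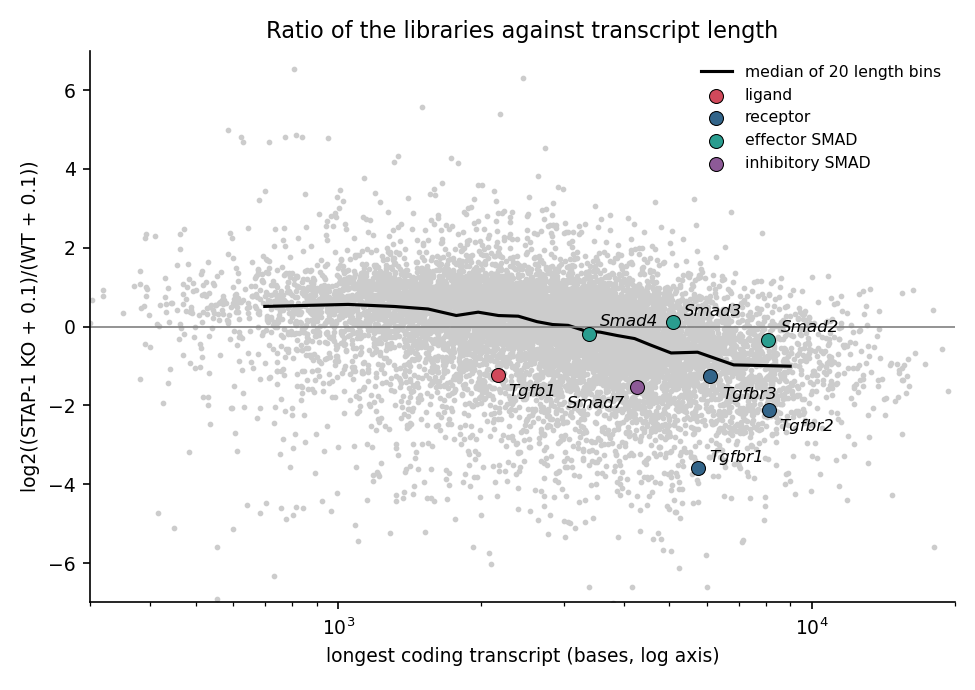
Log2 ratio of the libraries against the length of the longest coding transcript (bases, log axis). Each gray point is a gene that averaged 1 FPKM or more, the black line joins the medians of 20 length bins, and colored points are the 8 genes of the pathway at that level. The 72 genes outside the axes are left out, and the line falls with length, with Tgfb1, Smad7 and the 3 receptors below it and Smad2 and Smad3 above it.

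After subtraction of the median of the length bin and then of the GC bin, the log2 ratio was -1.13 for Tgfb1, -3.21 for Tgfbr1, -1.11 for Tgfbr2, -0.65 for Tgfbr3 and -0.91 for Smad7. The corresponding values for Smad2, Smad3 and Smad4 were 0.51, 0.97 and -0.09, with Smad3 close to the upper edge of the cut-off. Which transcript a library used decides this correction, and with the median length of the annotated coding transcripts the values were -3.78 for Tgfbr1, -1.02 for Tgfbr3, -1.54 for Smad7, -0.86 for Smad2 and -0.02 for Smad3. Applied to plain ratios, the correction with the longest transcript left 4 of the 8 genes called lower, which were Tgfb1, Tgfbr1, Tgfbr2 and, at 2.0-fold on the cut-off itself, Smad7. With the median coding length all 5 genes were called lower, a setting for which the share of all genes was not computed. The call of Tgfbr3 thus depends on the length assumed. With the longest transcript 18.4% of 12360 genes were called lower. The sign for Smad2 also depends on the length assumed, and it stayed within the cut-off in each case.

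Next, other genes of the TGF-β superfamily pathway were examined by lists, which include 37 genes of the bone morphogenetic protein and activin branch. The lists were drawn up from general knowledge, but with earlier results of these data known. Over 95 genes in the pathway lists, 65 could be compared, of which 26 were called lower, 2 were called higher and 37 were within the cut-off. The share called lower was 40.0%, beside the 22.9% of all genes. Without the bone morphogenetic protein and activin branch it was 22 of 51 genes, or 43.1%. After the correction 18 of the 65 genes were called lower, or 27.7%, beside 18.4% of all genes. Of the 65 genes 4 were then called higher, beside 1411 of 12360 genes.

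In the list for ligand latency and activation, 7 of the 10 genes that could be compared were lower in KO LSCs (beside 22.9% of all genes) and none was higher. Over the 6 genes that averaged 1 FPKM or more, the median log2 ratio was -2.29. It was -1.77 after the correction, -1.78 with a pseudocount of 1 FPKM, -1.54 with no filter and -3.80 over genes averaging 5 FPKM or more. After the correction 5 of the 10, without Thbs1 and Lrrc32, were called lower (beside 18.4% of all genes) and 1 was called higher. Furin, the protease that cleaves the TGF-β proproteins, had 662 FPKM in WT LSCs and 18.0 FPKM in KO LSCs, a 36.7-fold lower level (from 34.2 to 39.5). Mmp2, a matrix metalloproteinase, had 16.9 and 0.438 FPKM, and Mmp14 had 4.97 and 1.20 FPKM. Itgav, whose αv integrins release latent TGF-β, had 10.4 and 1.62 FPKM, and Thbs1, which encodes thrombospondin 1, had 3.53 and 1.14 FPKM. Lrrc33, the anchor of latent TGF-β on myeloid cells (also named Nrros), was within the cut-off at 113 and 100.4 FPKM.

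Among 20 genes for the turnover of receptors and SMADs and their adaptors, 18 could be compared, of which 5 were lower, 1 was higher and 12 were within the cut-off. The share called lower, 27.8%, was near the 22.9% of all genes. After the correction 4 genes, without Nedd4l, were called lower, or 22.2%, near the 18.4% of all genes. The ubiquitin ligases Smurf1 (29.1 and 3.13 FPKM), Nedd4l (21.6 and 6.10 FPKM) and Rnf111, also known as Arkadia (17.8 and 5.25 FPKM), the deubiquitinase gene Usp9x (12.3 and 1.69 FPKM) and the receptor-associated Tgfbrap1 (9.06 and 1.43 FPKM) were lower. Smurf2, the close relative of Smurf1, was within the cut-off at 2.50 and 2.74 FPKM. Bambi, a pseudoreceptor that inhibits signaling, was the gene that was higher, with 0.662 and 2.69 FPKM. The median log2 ratio of 16 genes was -0.49, and it was 0.09 after the correction for length and GC.

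The nuclear partners and corepressors of SMADs included 14 genes, of which 7 were lower (beside 22.9% of all genes) and none was higher. After the correction 4 of the 14 were called lower (28.6%, beside 18.4% of all genes), and Skil, Crebbp and Sp1 were within the cut-off. The corepressors Ski (17.5 and 1.85 FPKM) and Skil (6.69 and 2.2 FPKM) and the coactivators Ep300 (9.04 and 1.86 FPKM), Crebbp (5.15 and 1.65 FPKM) and Ncoa6 (6.90 and 1.53 FPKM) were among those that were lower. The corepressor gene Tgif1 was within the cut-off at 36.6 and 54.3 FPKM. The median of the list was -0.93, and it was -0.32 after the correction, with a median transcript length of 5364 bases beside 2951 bases over all genes.

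Genes known to respond to TGF-β were examined last, by lists drawn up in the same way. Of the 18 genes known to be induced that could be compared, 11 were lower in KO LSCs (61.1%, beside 22.9% of all genes). None was higher and 7 were within the cut-off. After the correction 10 of the 18 were called lower (55.6%, beside 18.4% of all genes). Since Tgfb1 and Smad7 are themselves on this list, the count without them was 9 of 16. The cell cycle inhibitor gene Cdkn2b, a classical target of SMAD3, had 55.2 FPKM in WT LSCs and 4.43 FPKM in KO LSCs, a 12.4-fold lower level (from 9.34 to 16.6). The integrin gene Itgae had 17 and 1.82 FPKM, the transcription factor gene Bhlhe40 had 268 and 54.6 FPKM, and the matrix gene Tgfbi had 11.6 and 2.48 FPKM. The corepressor Ski, given above, is also on the list. So are Tgif1 (36.6 and 54.3 FPKM), within the cut-off, and Smad6 (0 and 0.346 FPKM), under the floor in WT LSCs. The median log2 ratio of 15 genes was -1.56, and -1.13 after the correction.

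Of the 9 genes known to be repressed by TGF-β, 4 were higher, 1 was lower and 4 were within the cut-off, with a median of 1.03 over 8 genes. Over all genes 12.3% were higher and 22.9% lower. Myc had 59.3 and 169 FPKM, Id1, an inhibitor of differentiation, had 17.3 and 48.1 FPKM, and Cdk4 had 276 and 636 FPKM. Ccna2, the gene of cyclin A2, was within the cut-off at 119 and 229 FPKM. The exception was Id2, which had 896 FPKM in WT LSCs and 94.5 FPKM in KO LSCs. Genes on these lists also respond to many other signals.

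**Figure D4:**
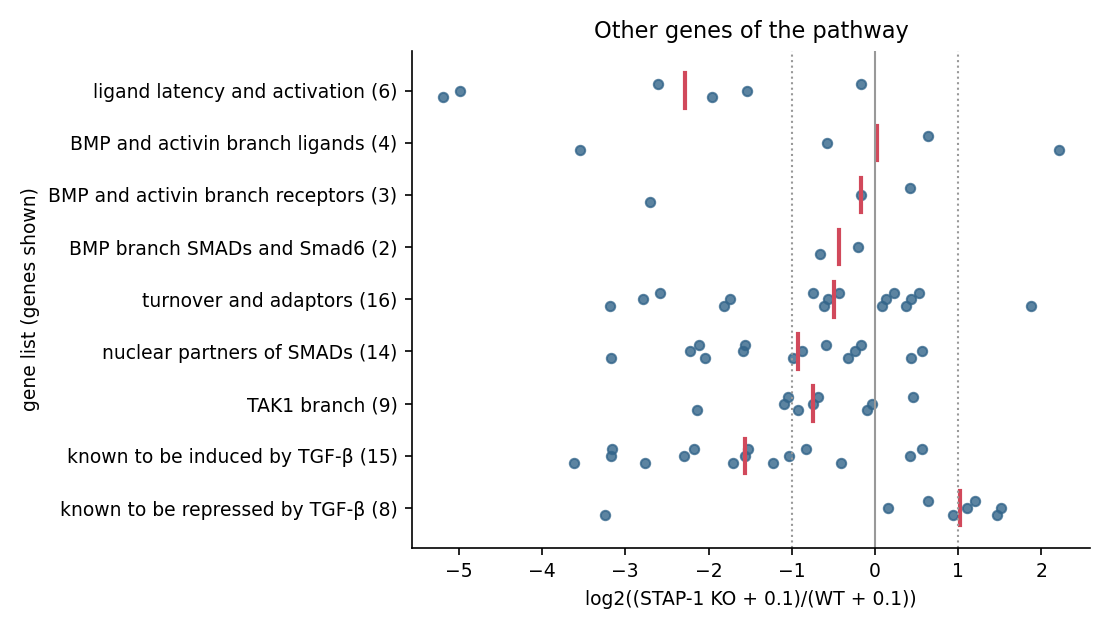
Log2 ratio of STAP-1 KO over WT (pseudocount of 0.1 FPKM) for the genes of each list that averaged 1 FPKM or more. Each point is a gene, the red bar is the median of the list, and dotted lines mark 2-fold. The medians run from -2.29 for ligand latency and activation to 1.03 for genes known to be repressed by TGF-β.

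Markers of other cells also differed between the libraries, those of mast cells in the direction of the receptors. Of the antigens by which the cells were sorted, Kit had 468 FPKM in WT LSCs and 30.1 FPKM in KO LSCs, Ly6a, the gene of Sca-1, had 285 and 106 FPKM, and Ptprc, the gene of CD45, had 107 and 38.2 FPKM. Cd34, a progenitor marker that was not part of the sort, had 281 and 194 FPKM. All 10 mast cell markers were lower in KO LSCs, beside 22.9% of all genes. Their sum was 49012 FPKM in WT LSCs and 4283 FPKM in KO LSCs, led by Cpa3, Cma1 and Tpsb2. Of the 8 neutrophil precursor markers, 5 were higher (12.3% of all genes were) and 2 were lower (22.9% of all genes were). Their sum was 801 and 4740 FPKM, led by Mpo, Ctsg and Elane. Markers of monocytes and macrophages summed to 188 and 234 FPKM. Of the 7 that could be compared, 4 were higher and 2 lower, beside the same shares of all genes. The part of these cells in the levels of the TGF-β genes was not tested.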

How the data were processed

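Expression was measured by RNA-seq in 2 libraries, 1 of WT and 1 of STAP-1 KO LSCs. The authors aligned reads to mm10 and deposited FPKM values per gene symbol. Their processing notes name TopHat2 2.0.13, Bowtie2 2.2.3, SAMtools 0.1.19 and Cufflinks 2.2.1, while the annotation and the scaling between libraries are not given in the sources used here. The kit does not keep strand, so reads of overlapping or antisense genes cannot be told apart. Ratios were computed as log2((STAP-1 KO + 0.1)/(WT + 0.1)) with pandas 2.3.3 and scipy 1.17.1 in Python 3.11.15, and were tested on simulated data.

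Read numbers were estimated from steps in FPKM values under 0.3, of which 47.8% (WT) and 49.1% (STAP-1 KO) were whole within 0.01 where chance gives 2.0%. The depths are therefore estimates. Plain ratios have exact binomial intervals of 95%, and levels have exact Poisson intervals. Transcript lengths, GC and positions came from GENCODE M21 (GRCm38), which matched 20911 symbols as written and 1901 by an older symbol, with 472 unmatched. The correction subtracted medians of 20 bins. Promoter sequences came from RefSeq.

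The genes and lists were chosen with earlier results of these data known. All 10 genes are named, with up to 5 genes per pathway list ranked by absolute log2 ratio (pseudocount of 1 FPKM, mean of 1 FPKM or more) and up to 3 per marker list by level. Outside this rule, Lrrc33, Lrrc32, Sp1, Bmpr2, Ptprc, Smurf2, Bambi, Tgif1 and the megakaryocyte and stromal markers were chosen after their values were seen. Alternatives were another pseudocount, floor, cut-off and scaling, and the correction.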

Additional observations from a re-analysis of the deposited data

How the results depend on the processing

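At a 4-fold cut-off 2 of the 10 genes, Tgfbr1 and Tgfbr2, were called lower against 5 at 2-fold, but the correction for transcript length and GC took the log2 ratio of Tgfbr2 from -2.11 to -1.11 (-1.09 with the median coding length). Over all genes the 4-fold cut-off called 1071 lower (2860 at 2-fold) and 300 higher (1538), and a 1.5-fold cut-off called 3201 higher. That correction turned the log2 ratio of Smad2 from -0.34 to 0.51, the median of the BMP and activin receptors from -0.17 to 0.25, that of the BMP branch SMADs from -0.43 to 0.09 and that of turnover and adaptors from -0.49 to 0.09. The same correction with the median coding length, chosen after seeing the data, turned Smad3 from 0.12 to -0.02. The median of the BMP and activin ligands went from 0.03 to -0.07 with a pseudocount of 1 FPKM, -0.58 with genes averaging 5 FPKM or more, -0.20 with no filter and -0.58 without Bmp1. The list without Bmp1 and the corrected counts of list genes were chosen after seeing the data. The cause was not tested. Of the other values of the 10 genes under these alternatives, 46 shifted by no more than their counting interval extends from the plain ratio and 12 shifted by more, with no change of sign. Low depth limits Tgfb2, Tgfb3 and Smad7. No paired analysis was possible because each group is 1 library.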

Other observations

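Genes of the branch that signals through bone morphogenetic proteins (BMPs) and activins were also measured. Of the 22 genes on its ligand list, which holds the protease gene Bmp1, 8 were listed at 0 FPKM in both libraries (35.4% of all genes were) and 5 reached 0.1 FPKM in both, of which 1 was called lower, 1 higher and 3 within the cut-off. Bmp7 had 2.96 FPKM in WT LSCs and 0.163 FPKM in KO LSCs, an 18.2-fold lower level (counting interval from 7.87 to 50.3). Gdf15, a divergent member of the superfamily, had 1.22 and 6.00 FPKM. Gdf3 was within the cut-off at 9.47 and 6.28 FPKM. The median log2 ratio of the list was 0.03 over 4 genes and -0.58 over 3 genes without Bmp1. Of the 11 receptor genes, 7 reached 0.1 FPKM in both, and 3 were called lower (beside 22.9% of all genes) and none higher. After the correction for length and GC 2 were called lower, without Bmpr2, or 28.6% beside 18.4% of all genes. The type I receptor gene Acvr1 had 4.42 and 0.595 FPKM, a 7.43-fold lower level (from 4.56 to 13), while Eng, the coreceptor endoglin, had 5.91 and 5.25 FPKM. As with Smad2 and Smad4, the 2 SMADs of this branch that reached the floor were within the cut-off, with Smad1 at 18.0 and 15.7 FPKM and Smad5 at 7.45 and 4.67 FPKM, while Smad9 was listed at 0 FPKM in both libraries. The inhibitory Smad6 was listed at 0 FPKM in WT LSCs and had 0.346 FPKM in KO LSCs.

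The kinase TAK1 and its partners carry a signal of TGF-β that does not need SMADs. Of the 9 genes of this branch, 3 were called lower in KO LSCs, none higher and 6 within the cut-off, which is 33.3% lower beside 22.9% of all genes, with a median log2 ratio of -0.74 (-0.45 after the correction for length and GC). After the correction 2 genes, Tab3 and Map2k3, were called lower, or 22.2%, near the 18.4% of all genes. Tab2 and Traf6 were then within the cut-off. Tab3, an adaptor of TAK1, had 6.91 and 1.49 FPKM, Tab2 had 16.4 and 7.65 FPKM, and the ubiquitin ligase gene Traf6 had 18.4 and 8.91 FPKM. Map3k7, the gene of TAK1 itself, was within the cut-off at 22.6 and 13.5 FPKM, and Map2k3, a kinase upstream of p38, had 246 and 129.5 FPKM.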
